A study of Mus musculus with 4 samples.

Results

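Secondary granule antimicrobial proteins are the stored defence proteins that neutrophil precursors make at the myelocyte stage. The 8 genes described here are Ltf, Camp, Ngp, Lcn2, Pglyrp1, Hp, Chil3 and Cd177, out of 12393 named genes on the arrays. They were chosen by symbol from the annotation of the array, which assigns them 9 of 22690 probe sets. Of these, 8 probe sets belong to 1 gene each, and the ninth is shared by Chil3 and its close relative Chil4.

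Messenger RNA was profiled on 4 mouse arrays, 1 for each of 4 cell populations sorted from bone marrow. The granulocytes were CD11b+, Gr1-high cells of heterozygous GFP:Gfi1 KI/WT mice. The Gfi1 knock-out monocytes were CD11b+, Gr1-low cells of GFP:Gfi1 KI/KI mice, in which the knock-in of green fluorescent protein (GFP) replaces Gfi1 function on both alleles. The GFP-high and GFP-low monocytes were CD11b+, Gr1-low cells of GFP:Gfi1 KI/WT mice, separated by the brightness of the reporter. All mice were untreated, 8 weeks old and of the C57BL/6 strain after at least 10 generations of backcrossing, and every population carried at least 1 knock-in allele. The labels give no GFP gate for the knock-out cells and no number of animals behind an array, so genotype and gate cannot be told apart when these cells are set against the others. With 1 array in each population there is no replicate check and no test, and every difference below describes these arrays.

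Neutrophil granules are filled in the order in which their proteins are made, so that peroxidase and serine proteases of the promyelocyte enter primary granules, and the proteins made later by the myelocyte enter secondary granules. In mice, transcription of secondary granule genes depends on the factor C/EBP-epsilon, and mice without Gfi1 lack mature neutrophils. Some of the stored proteins withhold iron from bacteria, damage bacterial membranes or bind components of the bacterial wall.

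Values are log2 expression, for which a difference of 1 is 2-fold. A floor of 5.18, the 40th percentile over all arrays and probe sets, was set, and a gene was counted as measured in a comparison when it was above the floor on at least 1 of the 2 arrays. Each of the 8 genes was above the floor on all 4 arrays. As the only error the data allow, the scatter between probe sets of the same gene was taken. Its SD in a log2 difference was 0.17 for knock-out minus GFP-low monocytes, over 2847 genes, and from 0.27 to 0.39 in the other comparisons. Among probe sets with a mean log2 level of 10 or more in the comparison, which is where most readings of the 8 genes lie, it was 0.09 to 0.21. Differences under 2 SDs over all levels are called within the probe set scatter. With the SD of the high levels, a choice made after seeing the data, 3 of these calls changed to beyond it, Chil3 in knock-out minus GFP-high (-0.49) and in GFP-high minus GFP-low monocytes (0.42) and Hp in granulocytes minus knock-out monocytes (0.52). Readings near the highest value of an array can be compressed, which touches every fold below that rests on one. Ltf, Camp and Ngp lay 0.15 to 0.49 below it in granulocytes and GFP-high monocytes, Ngp 0.84 below it in GFP-low monocytes, and Chil3 0.76 to 0.99 below it on all 4 arrays. In granulocytes and GFP-high monocytes, Lcn2 lay 0.53 below it on each array, Pglyrp1 0.78 and 0.96, and Cd177 0.87 and 1.17.

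Marker genes were read against the labels. Monocyte markers such as Csf1r and Ccr2 had a summed linear signal of 4087 in granulocytes, 47790 in knock-out, 2059 in GFP-high and 49810 in GFP-low monocytes, so the GFP-high population, named monocytes in the labels, was low in the 8 monocyte markers on the array. Mature granulocyte markers summed to 37840 in granulocytes, against 1975, 4961 and 2323 in knock-out, GFP-high and GFP-low monocytes. Gfi1 itself read 7.31 in granulocytes and 10.31 in GFP-high monocytes. It was just below the floor of 5.178 in knock-out monocytes (5.177) and further below it in GFP-low monocytes (3.74). The array of knock-out cells also differed in sex-linked RNA, with Xist at 5.80 against 9.56 to 10.93 on the other arrays and the Y-linked Eif2s3y at 8.31 there and below the floor elsewhere, and its log2 difference between the 3' and 5' probe sets of Actb was 0.28, against 0.08 to 0.16 on the others. The part of these array differences in the results below was not tested.

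The iron-binding protein lactoferrin is encoded by Ltf. Ltf read 14.10 in granulocytes, 7.36 in knock-out monocytes, 14.07 in GFP-high monocytes and 12.18 in GFP-low monocytes. It was high on the arrays of granulocytes and GFP-high cells, lower in GFP-low cells and far lower in knock-out cells. Camp encodes the mouse cathelicidin, from which a membrane-damaging peptide is cut. Camp read 13.96 in granulocytes, 7.37 in knock-out monocytes, 14.18 in GFP-high monocytes and 12.41 in GFP-low monocytes, the same shape as Ltf. Ngp encodes neutrophilic granule protein, a relative of the cathelicidins and cystatins. Ngp read 14.29 in granulocytes, 9.80 in knock-out monocytes, 14.35 in GFP-high monocytes and 13.32 in GFP-low monocytes.

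These 3 genes had the widest range over the arrays, 6.74 for Ltf, 6.80 for Camp and 4.55 for Ngp. The 250 bases before the annotated start site are shown for them and, for contrast, for Chil3, the member with the narrowest range (0.49). The sequences are from RefSeq for the mouse assembly GRCm38.p6, at chr9:109849457-109849706 on the minus strand for Camp, chr9:110419558-110419807 on the plus strand for Ngp, chr9:111019042-111019291 on the plus strand for Ltf and chr3:106167565-106167814 on the minus strand for Chil3. Each is written 5' to 3' on the strand of its gene, and capitals mark matches on either strand to TTNNGNAA, a pattern bound by C/EBP factors.
Camp: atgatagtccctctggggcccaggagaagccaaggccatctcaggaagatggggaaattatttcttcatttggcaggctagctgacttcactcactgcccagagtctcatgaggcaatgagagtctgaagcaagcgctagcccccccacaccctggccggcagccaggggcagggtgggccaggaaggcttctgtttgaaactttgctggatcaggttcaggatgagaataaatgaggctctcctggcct
Ngp: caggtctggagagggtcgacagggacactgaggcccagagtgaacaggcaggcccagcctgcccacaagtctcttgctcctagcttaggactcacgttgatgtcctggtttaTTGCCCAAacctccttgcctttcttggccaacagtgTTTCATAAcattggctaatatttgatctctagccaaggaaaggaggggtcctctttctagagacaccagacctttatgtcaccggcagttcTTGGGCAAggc
Ltf: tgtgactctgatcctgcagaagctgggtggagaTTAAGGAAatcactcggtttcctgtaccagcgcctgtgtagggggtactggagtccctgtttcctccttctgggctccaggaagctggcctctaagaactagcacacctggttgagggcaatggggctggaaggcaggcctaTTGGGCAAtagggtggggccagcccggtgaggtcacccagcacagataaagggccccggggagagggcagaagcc
Chil3: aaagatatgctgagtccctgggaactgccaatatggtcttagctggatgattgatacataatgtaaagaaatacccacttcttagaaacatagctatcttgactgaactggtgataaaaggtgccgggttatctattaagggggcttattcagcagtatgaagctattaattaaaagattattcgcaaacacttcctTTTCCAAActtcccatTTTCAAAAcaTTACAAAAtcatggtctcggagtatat

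The pattern TTNNGNAA had 3 matches in the Ngp window, starting 138, 102 and 11 bases before the start site, 2 in that of Ltf, at 217 and 75 bases, and 3 in that of Chil3, at 53, 37 and 27 bases. It had 0 matches in the Camp window. A RefSeq window was at hand for 7 of the 8 genes, all but Hp, and 5 of these 7 held a match, as did 36.8% of 32851 promoter windows of the same length. The letters AATCAC, part of the sequence bound by GFI1, were found on either strand in 1 of the 7 windows, that of Ltf, 210 bases before the start site and sharing 1 base with a TTNNGNAA match, and in 9.14% of all windows. The PU.1 pattern GAGGAA was found in 4 of 7 (Ltf, Lcn2, Pglyrp1 and Cd177) and 23.3% of all windows, and TATAAA in 1 of 7 (Cd177) and 12.4%. A match describes letters in the window and shows no binding.

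Lcn2 encodes lipocalin 2, which captures the siderophores that bacteria use to take up iron. Lcn2 read 13.92 in granulocytes, 11.63 in knock-out monocytes, 13.97 in GFP-high monocytes and 12.31 in GFP-low monocytes, so both low readings were still in the upper part of the scale. Pglyrp1 encodes a protein that binds bacterial peptidoglycan. Pglyrp1 read 13.67 in granulocytes, 9.45 in knock-out monocytes, 13.54 in GFP-high monocytes and 10.74 in GFP-low monocytes. Granulocytes and GFP-high cells again stood together, with the other populations well below them. Cd177 encodes a surface glycoprotein of neutrophils that is stored in the secondary granule membrane. Cd177 read 13.58 in granulocytes, 11.02 in knock-out monocytes, 13.33 in GFP-high monocytes and 11.35 in GFP-low monocytes.

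Hp encodes haptoglobin, which binds free haemoglobin and is also an acute-phase protein of the liver. Hp read 13.39 in granulocytes, 12.87 in knock-out monocytes, 13.06 in GFP-high monocytes and 12.50 in GFP-low monocytes. Chil3 encodes the chitinase-like lectin Ym1, which mouse monocytes and macrophages also make. Chil3 read 13.51 in granulocytes, 13.25 in knock-out monocytes, 13.74 in GFP-high monocytes and 13.32 in GFP-low monocytes. Both genes were high on all 4 arrays, and each neighbouring pair in the order of Chil3 levels lay within the probe set scatter. The probe set shared by Chil3 and Chil4 read 13.74, 13.43, 14.04 and 13.54 in the same order of arrays, while the probe set of Chil4 alone was below the floor throughout.

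**Figure D1:**
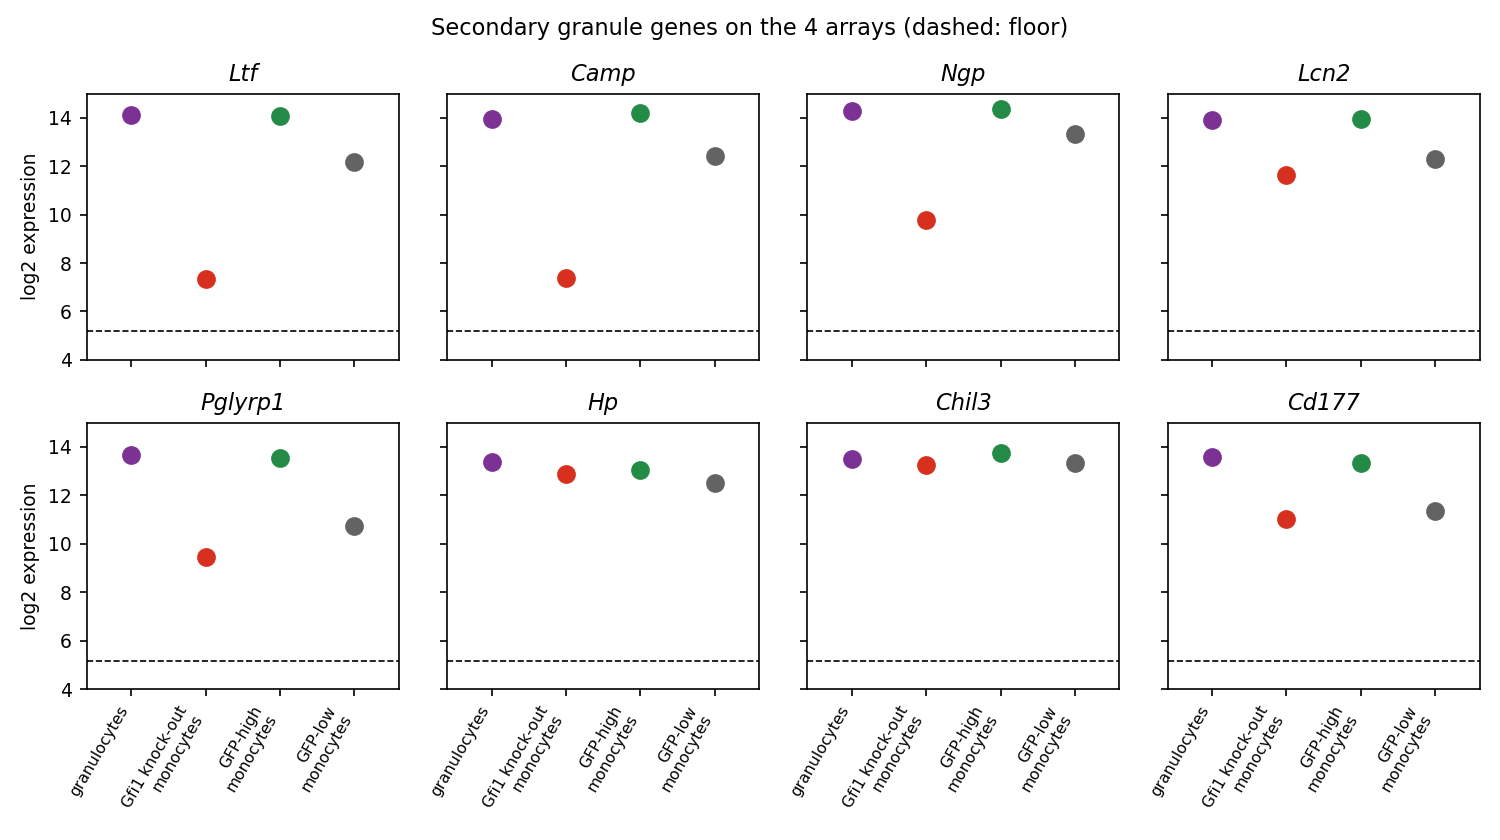
Log2 expression of the 8 secondary granule genes (vertical axis) on each of the 4 arrays (horizontal axis), 1 point for each array, with the floor of 5.18 as a dashed line. Ltf and Camp are at 7.36 and 7.37 in knock-out monocytes and at 12.18 or more on the other arrays, while Hp and Chil3 are at 12.50 or more everywhere.

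In the order of levels, knock-out monocytes were lowest for 7 of the 8 genes and GFP-low monocytes for the remaining gene, Hp. The highest reading was in granulocytes for 4 genes and in GFP-high monocytes for the other 4, and for each of the 8 these top readings differed by less than the probe set scatter. For Ltf, Camp, Ngp, Lcn2, Pglyrp1 and Cd177 both further steps, down to GFP-low and then to knock-out monocytes, were beyond it, that of Cd177 by a margin too small to show in 2 decimals (a difference of -0.33 and a limit of 0.33). For Hp, GFP-high and knock-out monocytes were within the scatter and the step from knock-out to GFP-low monocytes was beyond it.

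Knock-out monocytes were first set against GFP-low monocytes, which share the Gr1 gate and had similar levels of the monocyte markers. Gfi1 read below the floor in both populations (5.177 in knock-out and 3.74 in GFP-low cells). The knock-out reading was the higher of these and lay just under the floor of 5.178. With the floor at the 20th percentile, 4.001, it would be above the floor and that of GFP-low cells below it. At the main floor the comparison does not set cells with measured Gfi1 RNA against cells without it, and this depends on the floor. Of the 8 genes, 4 were 2-fold or more lower in knock-out cells and 0 were 2-fold or more higher, where 1.27% of 8010 measured genes were lower by that rule and 0.637% higher. At 4-fold, 3 of the 8 were lower, against 0.287% of all. The median log2 difference of the 8 was -0.99, against 0.03 over all measured genes, and the single values ran from -5.04 to 0.37.

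Camp was 32.9-fold lower in knock-out than in GFP-low monocytes, Ltf 28.2-fold lower and Ngp 11.5-fold lower. On the linear scale, knock-out cells held 3.04% of the GFP-low signal for Camp, 3.55% for Ltf and 8.71% for Ngp. Ordered from the most negative difference, Camp, Ltf and Ngp were at ranks 1, 2 and 5 of the 8010 genes, with Xist (-4.62) and the interferon-induced Oasl2 (-4.27, as a bound) at ranks 3 and 4. Pglyrp1 was 2.45-fold lower. The remaining genes were under 2-fold, Lcn2 with a log2 difference of -0.69 (62.2% of the GFP-low signal), Cd177 with -0.33, Chil3 with -0.07 and Hp with 0.37. The step between Ngp (-3.52) and Pglyrp1 (-1.29) was the widest gap in this order.

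Markers of other cells were read in the same comparison. Of the mature granulocyte markers, 1 of 6 was 2-fold or more lower in knock-out cells, namely Mmp9 at -2.52, and their median was -0.23, with Cxcr2 at 6.04 in knock-out and 6.68 in GFP-low cells. Promyelocyte markers, among them the myeloperoxidase gene Mpo, were 2-fold or more higher in 5 of 5 cases, with a summed linear signal of 11810 in knock-out and 2018 in GFP-low cells. Eosinophil markers were higher in 3 of 4 measured cases, with sums of 1992 and 320.3 and with Ccr3 and Il5ra below the floor in both. Plasma cell markers were lower in 2 of 2 (sums 296.6 and 1902), dendritic cell markers in 2 of 4 (1222 and 3792) and erythroid markers in 1 of 3 (235.2 and 415.2). Monocyte, macrophage, basophil and mast cell, B cell, T cell, NK cell and megakaryocyte lists had 0 members past 2-fold. Fewer cells of a type and less RNA for each cell cannot be told apart in sorted bulk samples, and the part of these other cells in the result was not tested.

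knock-out monocytes were then set against GFP-high monocytes; these cells are Gr1-low too and had the highest Gfi1 reading. Here 6 of the 8 genes were 2-fold or more lower in knock-out cells, each of them also past 4-fold, and 0 were higher. Of all measured genes, 2.40% were lower by 4-fold or more. By the 2-fold rule 7.81% of 8195 measured genes were lower and 9.53% higher. Camp was 112-fold lower, Ltf 105-fold and Ngp 23.5-fold. Camp and Ltf had the most negative differences of all measured genes. Pglyrp1 was 17.0-fold lower, Lcn2 5.06-fold and Cd177 4.94-fold. Hp (-0.19) and Chil3 (-0.49) differed by less than the probe set scatter, though Chil3 was beyond the limit of 0.34 that probe sets of high level give. Marker genes differed along with genotype here. Monocyte markers were 2-fold or more higher in knock-out cells for 8 of 8. Promyelocyte markers were lower for 5 of 5 (median -1.91), eosinophil markers for 4 of 5 measured, macrophage markers for 4 of 7, mature granulocyte markers for 3 of 6 and T cell markers for 1 of 2, the direction of the 6 lower secondary granule genes. In the opposite direction, 1 macrophage marker (Adgre1, 2.33) and 1 mature granulocyte marker (Clec4d, 2.16) were 2-fold or more higher. Dendritic cell markers were higher for 2 of 3 measured and lower for 0. The part of these markers in the result was not tested.

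GFP-high and GFP-low monocytes share genotype and Gr1 gate and were separated by the reporter. Of the 8 genes, 6 were 2-fold or more higher in GFP-high cells and 0 lower, where 9.03% of 8232 measured genes were higher and 9.61% lower, and all 8 differences were above 0. Their median was 1.71, against 0.03 over all measured genes. Pglyrp1 had the largest difference, 6.94-fold, followed by Cd177 with 3.93-fold, Ltf with 3.71-fold, Camp with 3.40-fold and Lcn2 with 3.15-fold. Ngp was just past the rule at 2.04-fold, between readings that lay 0.15 below the array's highest value in GFP-high cells and 0.84 below it in GFP-low cells. With quantile normalization its log2 difference was 0.92 and the count 5 of 8. Hp (1.48-fold) and Chil3 (1.34-fold) were under the rule. The same arrays differed in cell type markers. Monocyte markers were 2-fold or more lower in GFP-high cells for 8 of 8 (median -4.47, sums 2059 and 49810). Promyelocyte markers were higher for 5 of 5 (median 4.38, sums 45030 and 2018), and eosinophil markers were higher for 4 of 5 measured (sums 6757 and 320.3). Mature granulocyte markers were mixed, higher for 3 of 6 and lower for 2, and macrophage markers were higher for 4 of 7 and lower for 1. T cell markers were higher for 1 of 2 measured. Dendritic cell markers were lower for 2 of 4 measured and plasma cell markers for 2 of 3, with 0 higher in either list. The part of these markers in the result was not tested.

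The size of a gene's difference was not ordered alike in these comparisons, which share the GFP-low array. Ngp was 1.03 higher in GFP-high and 3.52 lower in knock-out cells on the log2 scale, each against GFP-low cells. Cd177 was 1.98 higher in GFP-high cells and had a difference of -0.33 in knock-out cells. Lcn2 was 1.65 higher in GFP-high cells and had a difference of -0.69 in knock-out cells. Steps between readings close to an array's highest value, such as those of Ngp, can be compressed, and without replicates this change of order was not tested.

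**Figure D2:**
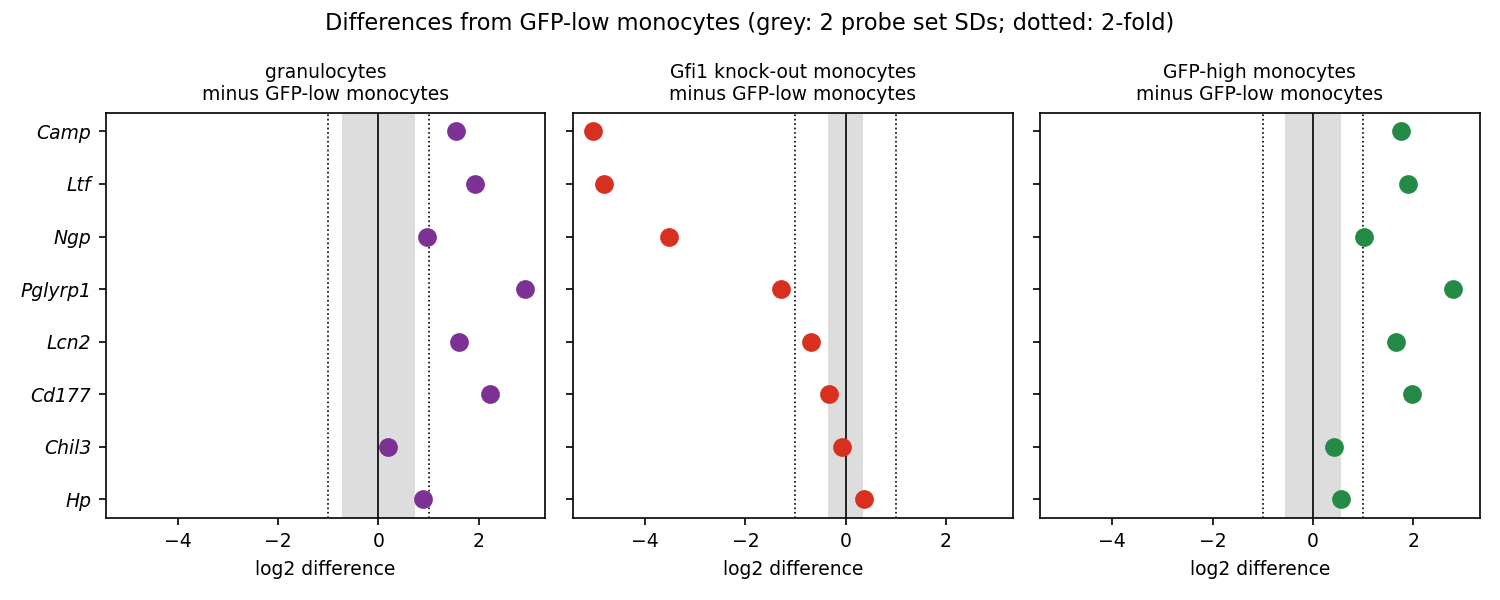
Log2 differences of the 8 genes (horizontal axis) for granulocytes, knock-out monocytes and GFP-high monocytes, each minus GFP-low monocytes, 1 point for each gene, with 2 probe set SDs in grey and the 2-fold limits dotted. The points run from -5.04 for Camp to 0.37 for Hp in the middle panel, and from 0.19 to 2.93 and 0.42 to 2.79 in the panels of granulocytes and GFP-high monocytes.

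Granulocytes were set against GFP-low monocytes to give the distance between the lineages. They were 2-fold or more higher for 5 of the 8 genes and lower for 0, where 10.0% of 8503 measured genes were higher and 18.2% lower. Pglyrp1 was 7.63-fold higher, Cd177 4.68-fold, Ltf 3.79-fold, Lcn2 3.05-fold and Camp 2.93-fold. Ngp, at 1.96-fold, and Hp, at 1.86-fold, were just short of the rule, and with each array centred on its median both passed it (log2 differences of 1.08 and 1.00), for a count of 7 of 8. Monocyte markers were lower in granulocytes for 8 of 8 and mature granulocyte markers higher for 6 of 6. Promyelocyte markers were higher for 2 of 5 and lower for 1, and macrophage markers higher for 2 of 5 measured and lower for 1. B cell markers were higher for 2 of 4 measured, T cell markers for 1 of 2, and erythroid and eosinophil markers for 1 of 3 each. Plasma cell markers were lower for 2 of 3 measured, dendritic cell markers for 2 of 4, and basophil and mast cell markers for 1 of 3. The part of these markers in the result was not tested. Chil3 (1.14-fold) was within the probe set scatter.

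Against GFP-high monocytes, granulocytes were 2-fold or more higher for 0 of the 8 genes and lower for 0, where 8.93% of 8457 measured genes were higher and 16.4% lower. The differences ran from -0.23 for Chil3 to 0.33 for Hp, all within the probe set scatter. On these arrays the 8 readings lay close to the end of the scale, 0.16 to 1.06 below the highest value of the granulocyte array and 0.15 to 1.44 below that of the GFP-high array. Equal levels are therefore not shown. Over the same arrays the mature granulocyte markers were 2-fold or more higher in granulocytes for 6 of 6 and the promyelocyte markers lower for 5 of 5. Eosinophil markers were lower for 4 of 5 measured and macrophage markers for 3 of 7. Erythroid markers were higher for 3 of 3 measured, dendritic cell markers for 3 of 4 and monocyte markers for 3 of 8. B cell markers were higher for 2 of 4 measured and T cell markers for 1 of 2. The part of these markers in the result was not tested.

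Against knock-out monocytes, granulocytes were 2-fold or more higher for 6 of the 8 genes and lower for 0, where 11.2% of 8520 measured genes were higher and 20.3% lower. Ltf was 107-fold higher, Camp 96.3-fold, Ngp 22.6-fold, Pglyrp1 18.7-fold, Cd177 5.88-fold and Lcn2 4.91-fold, while Hp (1.44-fold) and Chil3 (1.19-fold) were within the probe set scatter over all levels. Monocyte markers were lower in granulocytes for 8 of 8, promyelocyte markers lower for 5 of 5 and mature granulocyte markers higher for 6 of 6. Eosinophil markers were lower for 3 of 4 measured and higher for 1, and macrophage markers higher for 3 of 5 measured and lower for 1. Erythroid markers were higher for 3 of 3 measured, B cell markers for 2 of 4 and T cell markers for 1 of 2. Plasma cell markers were higher for 1 of 3 measured and dendritic cell markers for 1 of 4. The part of these markers in the result was not tested.

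Genes of the other granule classes give the setting of these values. Of 11 measured further secondary granule genes, 1 was 2-fold or more lower in knock-out than in GFP-low monocytes and 0 were higher, with a median of -0.15. That gene was Itgb2l, an integrin beta chain gene, which read 12.56 in granulocytes, 5.58 in knock-out, 12.19 in GFP-high and 7.78 in GFP-low monocytes. Next came Ceacam10 (-0.89, as a bound), the chitinase-like Chil1 (-0.74) and Mmp8, a collagenase gene (0.71). Ceacam10 read 4.22 in knock-out cells, below the floor, and 6.07 in GFP-low cells. Orm1 (-0.47) was a bound as well, with readings of 4.12 and 5.65. The count of 1 gene lower therefore depends on the floor. Mmp8 read 13.55 in granulocytes, 11.71 in knock-out, 11.32 in GFP-high and 11.00 in GFP-low monocytes, so it was high in granulocytes and did not share the low reading of Ltf, Camp and Ngp in knock-out cells. Among 3 measured tertiary granule genes, Mmp9, the gelatinase gene, was lower in knock-out cells (5.94, against 8.45 in GFP-low cells), and Adam8 (0.22) and Slc11a1 (-0.015) were under 2-fold. Mmp9 is the same gene that was counted among the mature granulocyte markers.

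Primary granule genes lay on the other side. In knock-out against GFP-low monocytes, 4 of 5 were 2-fold or more higher and 0 lower, with a median of 2.44 and with Mpo at 11.42 in knock-out and 8.08 in GFP-low cells. Their median in GFP-high minus GFP-low monocytes was 4.32. There 4 of 5 were 2-fold or more higher in GFP-high cells and 1 lower, Ctsc, whose product activates the granule proteases (9.24 in GFP-high, 12.46 in GFP-low cells), while the further secondary granule genes were higher for 4 of 11 and lower for 0. In knock-out against GFP-low cells, Mpo, Elane, Prtn3 and Ctsg were thus higher and Camp, Ltf and Ngp lower. Mpo, Elane, Prtn3 and Ctsg are also among the promyelocyte markers read above, so the counts of these lists are not separate observations.

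**Figure D3:**
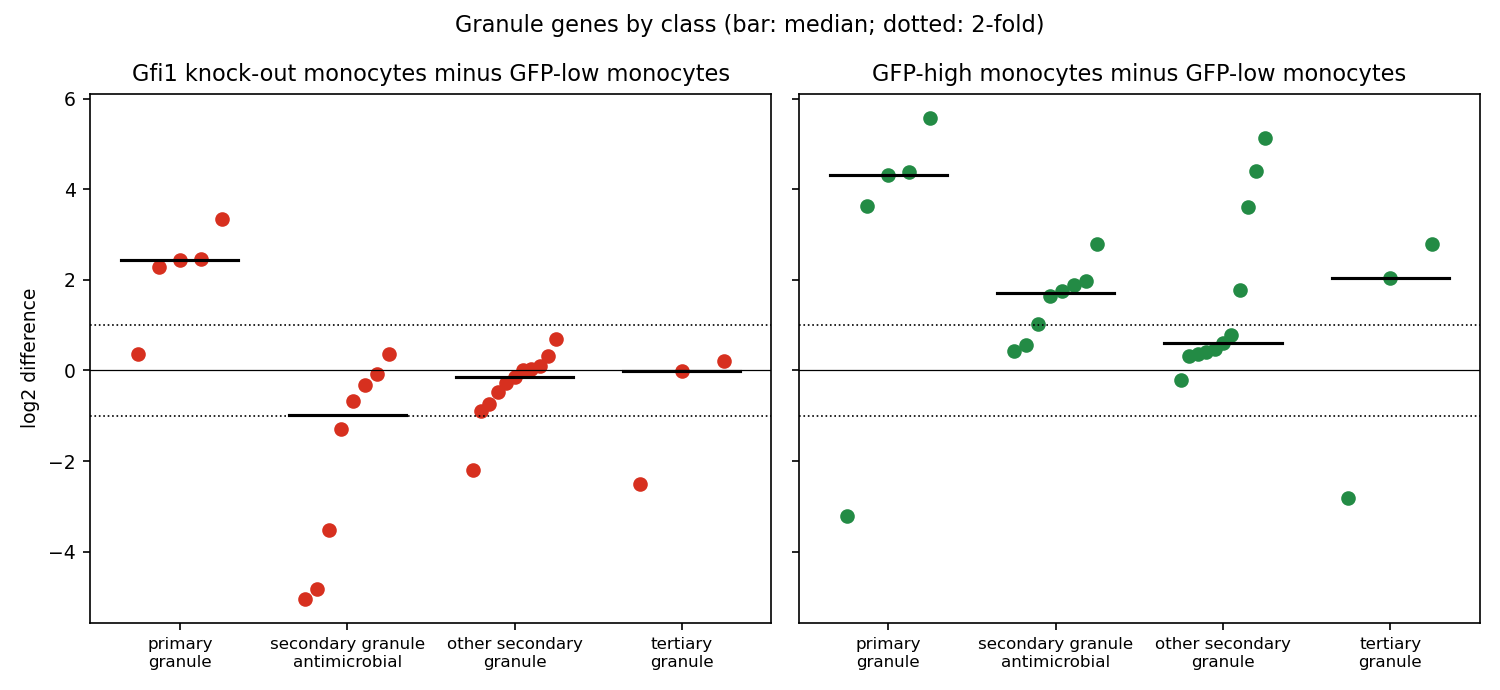
Log2 differences (vertical axis) of the measured genes of 4 granule classes (horizontal axis), 1 point for each gene with the class median as a bar, for knock-out minus GFP-low monocytes and GFP-high minus GFP-low monocytes. The median of the secondary granule antimicrobial genes is -0.99 in the first panel and 1.71 in the second, and that of the primary granule genes 2.44 and 4.32.

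Of the transcription factors linked to granule genes, 0 of 9 measured were 2-fold apart between knock-out and GFP-low monocytes. Over all 8010 measured genes 1.27% were lower and 0.637% higher by that rule, so a count of 0 is close to this share. Gfi1 was not among the 9, because both of its readings were below the floor. Cebpa, which acts early in the lineage, read 8.47 in granulocytes, 10.27 in knock-out, 8.77 in GFP-high and 10.51 in GFP-low monocytes. Cebpd, of the same family, read 11.84, 10.70, 11.32 and 10.60 in that order. Klf5, a zinc finger factor, read 10.57 in granulocytes and 10.73 in GFP-high monocytes, against 4.73 in knock-out monocytes, below the floor, and 5.72 in GFP-low monocytes. Like Ltf it was high on the arrays of granulocytes and GFP-high cells, with a difference of -0.54 between knock-out and GFP-low cells as a bound. Cux1, a repressor of the lactoferrin gene in earlier work, differed by 0.38 there, and the PU.1 gene Spi1 by 0. Cebpe, which encodes C/EBP-epsilon, had no probe set assigned to it alone, so no reading of it was available.

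Receptors and partners of these proteins varied in level. The lipocalin 2 receptor gene Slc22a17 read from 5.35 to 5.81 on the 4 arrays, close to the floor, and Lrp2, whose product megalin takes up lipocalin 2, was below it throughout. Trem1, whose product binds PGLYRP1 in humans, read 10.78 in granulocytes, 7.16 in knock-out, 8.16 in GFP-high and 6.21 in GFP-low monocytes. Fpr2, whose human counterpart is a receptor of the cathelicidin peptide, read 13.27 in granulocytes, 11.04 in knock-out, 12.28 in GFP-high and 10.66 in GFP-low monocytes. Both were higher in knock-out than in GFP-low cells, by 0.95 and 0.38 on the log2 scale, under the 2-fold rule. Cd163, the receptor for haptoglobin bound to haemoglobin, was above the floor in GFP-high monocytes alone (5.92). Of the measured relatives of the 8 genes, Chil1 read 12.29 in granulocytes, 9.22 in knock-out, 11.73 in GFP-high and 9.96 in GFP-low monocytes, and Chil4, Chia1, Meltf and Pglyrp2 were below the floor on every array.

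Profiles were compared by the root mean square difference of log2 values centred on each gene's mean over the 4 arrays, among 8621 genes above the floor on at least 1 array. Among the 28 pairs of the 8 genes, Ltf and Camp were closest (0.14), followed by Lcn2 and Cd177 (0.22) and by Hp and Chil3 (0.28), and Camp and Hp were farthest apart (2.65). The nearest gene to Ltf among all 8621 was Camp, and the next was Ngp (0.90). For Ngp the nearest gene was Xist (0.68), the X-inactivation RNA that also differed between arrays, and then Pglyrp1 (0.88). Pglyrp1 was closest to Card10 (0.05) and Fmo5 (0.23), Lcn2 to Nt5c3 and Pgap6 (0.10 each), and Cd177 to Cd24a (0.06), a surface protein gene of immature granulocytes, and Agap1 (0.08). Hp was closest to Agfg1 (0.04) and Gapdhs (0.06), and Chil3 to Serf1 (0.02) and Acin1 (0.03), which have almost flat profiles. The median profile of the 8 genes was nearest to Plxnc1 (0.29), Stap1 (0.29), Chil1 (0.35), Zeb1 (0.38) and Pgap6 (0.41). These likenesses rest on 4 values for each gene.

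**Figure D4:**
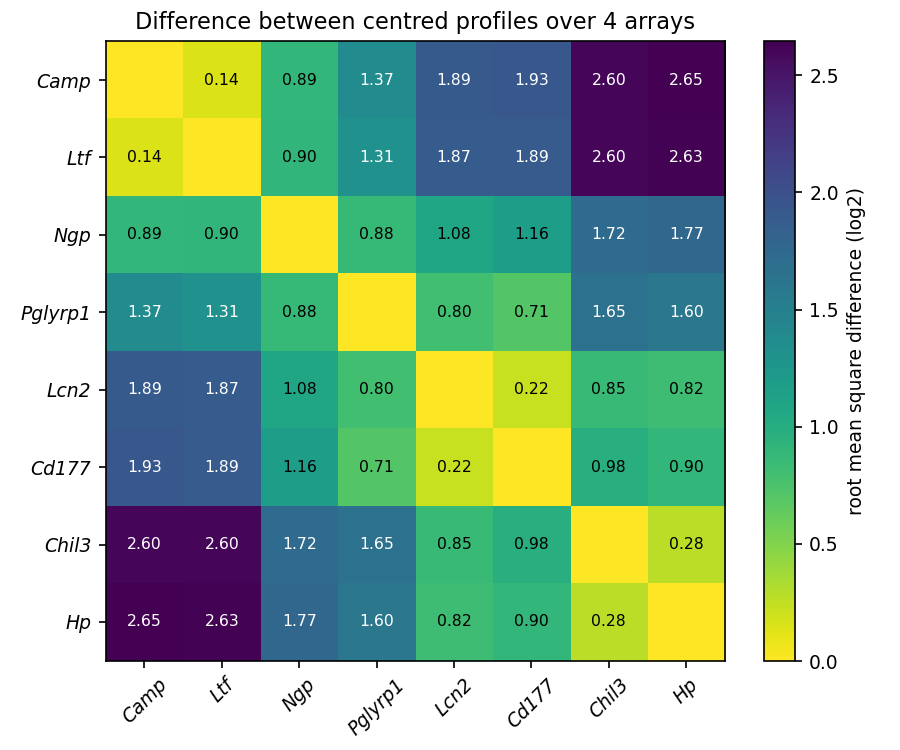
Root mean square difference in log2 units between the centred profiles of each pair of the 8 genes over the 4 arrays, printed in each cell and coloured from 0. Ltf and Camp (0.14), Lcn2 and Cd177 (0.22), and Hp and Chil3 (0.28) form the closest pairs.

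Camp, Ngp and Ltf also lie on the same chromosome, mouse chromosome 9, in that order and in the same neighbourhood, as the coordinates of their start sites show, whereas Lcn2 is on chromosome 2, Pglyrp1 and Cd177 on chromosome 7, Hp on chromosome 8 and Chil3 on chromosome 3. In the gene table of GRCm38.p6, 8 protein-coding genes lie between Camp and Ngp and 20 between Ngp and Ltf. Of these 28 genes 18 were on the array and 10 were measured in knock-out against GFP-low monocytes. None of the 10 was 2-fold apart (0 higher and 0 lower), and their log2 differences ran from -0.37 for Nbeal2, which encodes a protein needed for platelet granules, to 0.35 for the helicase gene Dhx30, with a median of -0.02. Of all 8010 measured genes 1.27% were lower and 0.637% higher by this rule, so 0 of 10 is close to the share over all genes. The low readings of Camp, Ngp and Ltf in knock-out cells were not shared by these 10 genes, and the remaining genes between them were not measured.

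**Figure D5:**
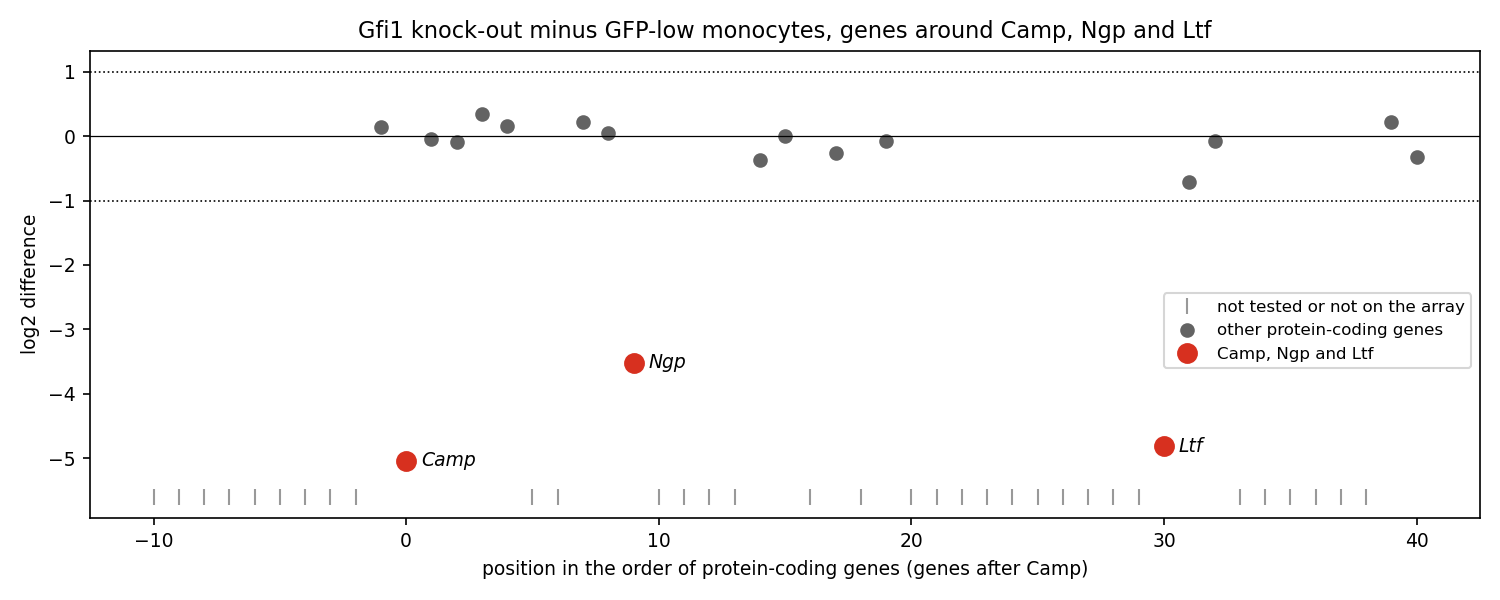
Log2 difference of knock-out minus GFP-low monocytes (vertical axis) for protein-coding genes in their order on chromosome 9 (horizontal axis, counted from Camp), with ticks at the bottom for genes not measured. Camp, Ngp and Ltf are at -5.04, -3.52 and -4.82, and the 10 measured genes between them lie from -0.37 to 0.35.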

How the data were processed

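The labels' protocols state that total RNA was isolated with TRIzol and that 6 µg was turned into biotin-labelled cRNA for Affymetrix arrays. The values deposited by the authors were used as log2 expression, a scale inferred from their range (2.70 to 14.50). How they were background-corrected, summarised and normalized, and the log base, is not stated in the sources used. Array medians were 5.91 to 6.01, so no further scaling was applied. Normalization to a common distribution would hide a shift of most genes.

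Probe sets were named from the platform annotation, updated by gene identifier (20351 of 20380 with 1 gene matched). The probe set with the highest mean stood for a gene. Values below the floor were set to it, which turns a difference into a bound where 1 array was there. For the probe set SD, the 2 brightest probe sets of a gene were paired, their log2 differences subtracted, and the SD over genes divided by the square root of 2. It does not cover the spread between animals. Arrays have no read depth, and their number limits the precision.

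The members and lists were chosen with earlier results of these data known. Named were the 8 members and Gfi1, the relatives on the array, and part of the factors and partners, not all of them. Up to 4 genes of each other list with the largest differences were named too. So were the 2 genes most like each member and the 5 most like their median. Neighbours on chromosome 9, sex-linked and control genes, marker examples, Orm1 and genes ranked beside the members were chosen after their values were seen. The calculations were tested on simulated data and run in Python 3.11.15 with numpy 2.4.6 and pandas 2.3.3. Alternatives were other floors, other normalizations, other probe set rules and a 4-fold rule.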

Additional observations from a re-analysis of the deposited data

How the results depend on the processing

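The counts, the medians and the log2 differences of the members were recomputed under 7 other settings and 1 chosen after seeing the data, the mean of both Chil3 probe sets, and the counts alone under a 4-fold rule. No difference of 2-fold or more changed its sign. Floors at the 20th and 60th percentile, no floor, and the mean of all probe sets moved no member, quantile normalization moved values by at most 0.11, median centring by at most 0.105 and the second Chil3 probe set by at most 0.06. Quantile normalization gave 5 genes in place of 6 higher in GFP-high than in GFP-low monocytes, and median centring 7 in place of 5 higher in granulocytes than in GFP-low monocytes, as Ngp and Hp lie near the 2-fold limit. With a 4-fold rule, 1 gene was higher in GFP-high than in GFP-low monocytes and 2 were higher in granulocytes than in GFP-low monocytes, where the 2-fold rule gave 6 and 5. Without probe sets that end in _x_at, _s_at or _a_at, Lcn2 drops out, and the median over the 7 other genes was -1.29 for knock-out minus GFP-low monocytes, -4.09 for knock-out minus GFP-high monocytes and 4.22 for granulocytes minus knock-out monocytes, as follows from the fewer genes. No paired analysis was possible because each population has 1 array, and for the same reason no array could be left out. Readings near the top of the scale limit every fold that rests on them.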
